A study of Mus musculus with 15 samples.

Results

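Glo1 and 5 genes that lie beside it on mouse chromosome 17 were followed through the deposited table of hypothalamic RNA levels: Mdga1, Zfand3, Btbd9, Glo1, Dnahc8 and Glp1r, in their order along the chromosome. They were taken by gene name, 6 of the 24831 names in the table, and together they had 17 of its 49404 transcripts. The set was chosen by the RPKM differences between groups that these genes show in this same table, so every value below is a description. The mice were of the outbred CD-1 stock and hypothalami were taken on postnatal day 15. The series concerns thyroid hormone effects in the F2 generation, and its 15 samples form the groups PGM, PGF, HM, HF and Control with 3 samples each. The labels do not spell out these codes, nor a genotype, treatment or dose for any group, so the codes are used as they stand.

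Glo1 encodes glyoxalase I, which works with glutathione to clear methylglyoxal, a reactive by-product of glycolysis that also acts on GABA type A receptors. In mice the level of Glo1 in brain has been linked to anxiety-like behaviour. The stretch of chromosome 17 around it is known for a segment of DNA that is duplicated in some mouse strains and single in others, and DNA copy number was not measured in these samples. Glp1r encodes the receptor for glucagon-like peptide 1, a G protein-coupled receptor through which the hypothalamus reads a satiety signal. Btbd9 encodes a BTB-domain protein whose human gene is associated with restless legs syndrome, Zfand3 a zinc finger protein, Dnahc8 (now called Dnah8) a heavy chain of the dynein motor of sperm tails and cilia, and Mdga1 a membrane-anchored immunoglobulin protein that binds neuroligins and limits synapse formation.

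In GENCODE M21 (build GRCm38, the assembly also called mm10) the genes run from 29827949 to 30940791 on chromosome 17, a span of 1.11 Mb. Glo1 lies on the minus strand at chr17:30584936-30626871. Dnahc8 starts on the opposite strand inside that annotation, with 2518 shared bases. The RefSeq start of Glo1 used for the promoters below lies further in, and the promoter windows of Glo1 and Dnahc8 are 13.8 kb apart, so the overlap holds for the GENCODE span of Glo1. Btbd9 (chr17:30215524-30576488, minus strand), Zfand3 (chr17:30004733-30210828, plus strand) and Mdga1 (chr17:29827949-29970087, minus strand) follow on the side of lower coordinates, and Dnahc8 (chr17:30624354-30877365) and Glp1r (chr17:30901817-30940791), both on the plus strand, on the other. Among the 82.5% of names in the table that could be placed, no other lay between the outermost of them.

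RefSeq promoter windows, 250 bases before to 50 after a gene's start on GRCm38.p6, were at hand for 5 of the 6 genes. Those of Glo1 (chr17:30612610-30612909, minus strand) and Mdga1 (chr17:29887833-29888132, minus strand) are shown because these were the genes that passed 1.5-fold in a comparison, and that of Dnahc8 (chr17:30626686-30626985, plus strand) because it is the nearest start to that of Glo1. Capitals mark matches to short motifs on either strand. The CCAAT box was searched by that name's own letters. For the GC box the letters GGGCGG were searched.
Glo1: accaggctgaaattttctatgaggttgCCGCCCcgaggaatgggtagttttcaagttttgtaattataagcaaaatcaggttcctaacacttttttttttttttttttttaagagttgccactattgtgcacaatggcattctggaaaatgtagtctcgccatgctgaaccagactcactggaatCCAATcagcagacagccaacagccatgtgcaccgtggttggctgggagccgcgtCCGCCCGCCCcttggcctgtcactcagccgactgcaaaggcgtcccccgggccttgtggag
Dnahc8: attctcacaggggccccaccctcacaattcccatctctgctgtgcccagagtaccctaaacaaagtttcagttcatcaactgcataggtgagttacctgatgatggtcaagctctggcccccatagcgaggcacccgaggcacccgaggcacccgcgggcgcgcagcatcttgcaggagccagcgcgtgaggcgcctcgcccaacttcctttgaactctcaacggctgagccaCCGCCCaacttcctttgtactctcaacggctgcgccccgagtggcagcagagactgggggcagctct
Mdga1: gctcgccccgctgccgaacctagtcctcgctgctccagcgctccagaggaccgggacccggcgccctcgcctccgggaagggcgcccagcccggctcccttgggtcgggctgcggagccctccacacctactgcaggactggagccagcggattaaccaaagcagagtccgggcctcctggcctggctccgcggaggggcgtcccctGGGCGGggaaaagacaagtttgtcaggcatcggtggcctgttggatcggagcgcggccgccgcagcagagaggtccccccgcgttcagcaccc
The Glo1 window held 1 CCAAT box, which the other 4 windows lacked and 37.4% of 32851 promoter windows of this length carried. It held 3 GC boxes, a pair of which overlap each other, and 35.7% of all windows held at least 1. Dnahc8, Mdga1 and Zfand3 had 1 GC box each and Glp1r had 3, again with an overlapping pair. The thyroid hormone receptor half-site, searched as AGGTCA, was in none of the 5 windows and in 16.3% of all windows. Nor was the E-box, searched as CACGTG and present in 7.15% of all windows. The core of the antioxidant response element, searched as TGACNNNGC, was absent from the 5 and present in 12.4% of all windows. The same held for the TATA box, searched as TATAAA, which 13.6% of all windows had. The Glo1 window had 11 CpG dinucleotides and was 49.7% G or C, less than those of Dnahc8 (16 and 60.3%), Mdga1 (28 and 71.3%), Glp1r (29 and 73.7%) and Zfand3 (37 and 78.7%), while the medians of all windows were 7 and 52.7%.

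The values are RPKM, which corrects read counts for transcript length and library size, and the authors deposited 1 mean per transcript and group. A level per gene is the median of its transcripts, and a difference is log2(mean RPKM + 0.5) of the group named first minus that of the group named second, a scale that understates the difference of low genes. Values of single samples were not used, so there is no SD, interval or test, read depth is unknown, and whether neighbouring levels in an order differ beyond the spread between mice cannot be said. Of the 6 genes, 5 passed the filter, an average over the groups that was not under 1 RPKM, as did 17481 names in all. Dnahc8, with a mean of 0.727 RPKM, did not, and its values are given outside all counts. Over all kept genes the median difference lay between -0.05 and 0.04 in the 8 comparisons made. Markers of the labelled tissue were present in all groups: the 10 hypothalamic markers summed to 1519 RPKM in PGM, 1383 in PGF, 1871 in HM, 1841 in HF and 2048 in Control, and none was at 0. Thalamic markers (6 genes) summed to 381 RPKM in PGM, 365 in PGF, 210 in HM, 138 in HF and 139 in Control. Pituitary markers (6 genes) summed to 71.6 RPKM in PGM, 1644 in PGF, 89.1 in HM, 37.97 in HF and 72.2 in Control. Within these sums Gh alone was at 59.7, 1363, 62.1, 16.5 and 39.8 RPKM. In bulk tissue fewer cells of a type and less RNA per cell cannot be told apart.

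Glo1 was the most abundant of the 6 genes, and on the log2(RPKM + 0.5) scale its group means spread the most. As a plain ratio the PGF mean was 249% of the HF mean for Glo1 and 256% for Dnahc8, whose levels were very low. Its level was 332 RPKM in PGM, 368 in PGF, 201 in HM, 148 in HF and 295 in Control. From low to high the order was HF, HM, Control, PGM, PGF, so the HM and HF means were below Control and the PGM and PGF means above it. The HF mean was 50.04% of the Control mean, a difference of -0.996 or 1.99-fold lower, and the HM mean was 68.3% of it, a difference of -0.55. The PGM and PGF means were 112% and 125% of Control, with differences of 0.17 and 0.32. Both Glo1 transcripts gave the same order: uc012aos.1 was at 345, 384, 207 and 153 RPKM in PGM, PGF, HM and HF, against 305 RPKM in Control, and uc012aot.1 at 319, 353, 196 and 143 RPKM, against 285 RPKM in Control. The ratio of uc012aos.1 to uc012aot.1 stayed between 1.05 in HM and 1.09 in PGF. Transcripts of a gene can share reads, so here and for the other genes their agreement is not a repeat measurement.

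At 1.5-fold, Glo1 was the 1 gene of the 5 tested that was lower in HF than in Control, where 0.172% of all kept genes were (30 of 17481) and 0.829% differed in either direction. In HM no gene of the 5 reached 1.5-fold below Control, against 0.864% of all genes, and Glo1 at -0.55 and Mdga1 at -0.55 lay just inside the limit of 0.58. Between groups other than Control, Glo1 was at 332 RPKM in PGM against 201 in HM, a difference of 0.72, in a comparison where 1.02% of all genes were 1.5-fold higher in PGM. Its widest gap was 368 RPKM in PGF against 148 in HF, a difference of 1.32 or 2.49-fold, where 1.78% of all genes were 1.5-fold higher in PGF. Within the pairs of like-named groups the gaps were smaller, -0.15 between PGM and PGF and 0.45 between HM and HF, and no gene of the 5 passed 1.5-fold there (0.99% and 1.68% of all genes did, in either direction). The comparisons with Control share its 3 samples, so they are not independent of each other.

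**Figure D1:**
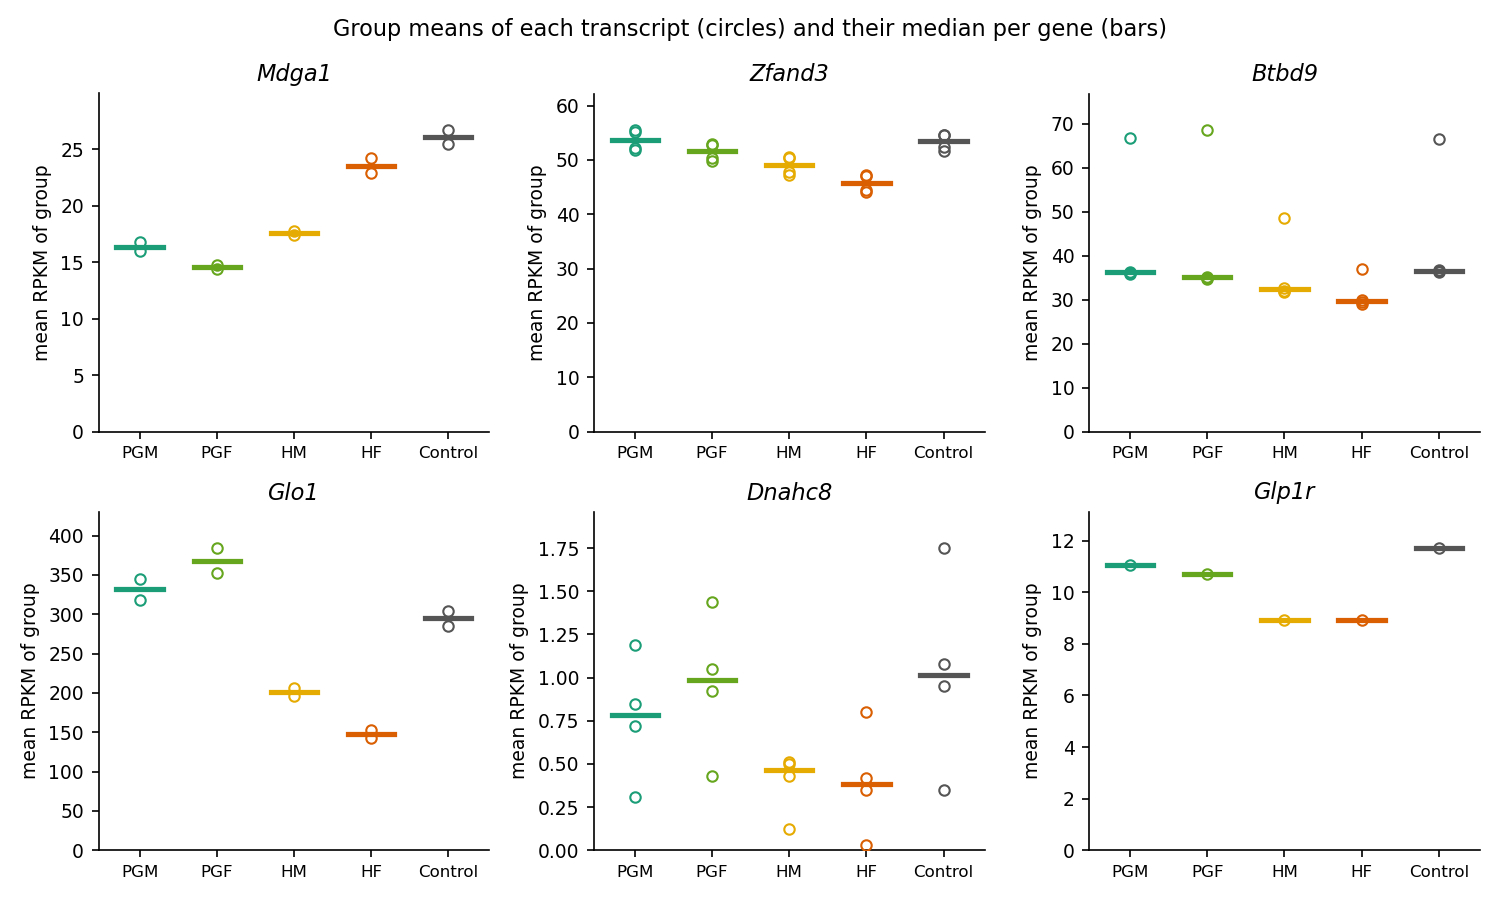
Mean RPKM in each group (x axis) for the 6 genes, 1 panel each with its own y axis from 0: circles are transcripts and bars the median per gene, with no error, since group means were used. Glo1, Btbd9, Zfand3, Dnahc8 and Glp1r were lowest in HF and second lowest in HM, while Mdga1 was lowest in PGF at 14.6 RPKM.

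Glp1r, Btbd9 and Zfand3 were also lowest in HF and HM, by smaller amounts than Glo1. Glp1r, on the far side of Dnahc8, was at 11.1 RPKM in PGM, 10.7 in PGF, 8.93 in HM, 8.91 in HF and 11.7 in Control. HM and HF were level with each other and both stood at 76% of Control, with differences of -0.37 and -0.38, while PGM and PGF differed by -0.08 and -0.12. Its level rests on a single transcript, uc008bud.1.

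Btbd9 was at 36.3 RPKM in PGM, 35.0 in PGF, 32.3 in HM, 29.7 in HF and 36.6 in Control. The HF mean was 81.2% of Control (a difference of -0.30) and the HM mean 88.3% (-0.18), with PGM and PGF within 0.07 of Control. Zfand3, farther from Glo1 on that side, was at 53.6 RPKM in PGM, 51.6 in PGF, 49.1 in HM, 45.8 in HF and 53.4 in Control, which are differences of 0.004, -0.05, -0.12 and -0.22. The 4 Zfand3 transcripts moved as a block: their HF differences ran from -0.23 to -0.21 and their HM differences from -0.13 to -0.11. By the median of its transcripts neither gene reached 1.5-fold in any of the 8 comparisons.

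Of the 5 genes tested, 4 (Zfand3, Btbd9, Glo1 and Glp1r) had HF as the lowest and HM as the second lowest group, an order that 2.01% of all kept genes showed (352 of 17481). The order was among the known differences by which the genes were picked, so the count is a description. Dnahc8, read at very low levels, had the same order with 0.785 RPKM in PGM, 0.985 in PGF, 0.465 in HM, 0.385 in HF and 1.02 in Control. Its differences of -0.65 in HM and -0.78 in HF were outside 1.5-fold, and each of its 4 transcripts was lower in HM and in HF than in Control. As a share of the Control mean they ran from 28.6% for uc008buc.1 to 47.2% for uc008bub.1 in HM, and from 8.57% for uc008btz.1 to 45.7% for uc008buc.1 in HF. In uc008buc.1 HM was the lowest group, and in the other 3 HF was. At these levels a few reads could move a value, and since the GENCODE spans of Glo1 and Dnahc8 overlap on opposite strands and the counting is not stated to use strand, reads of the shared stretch could not be assigned.

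**Figure D2:**
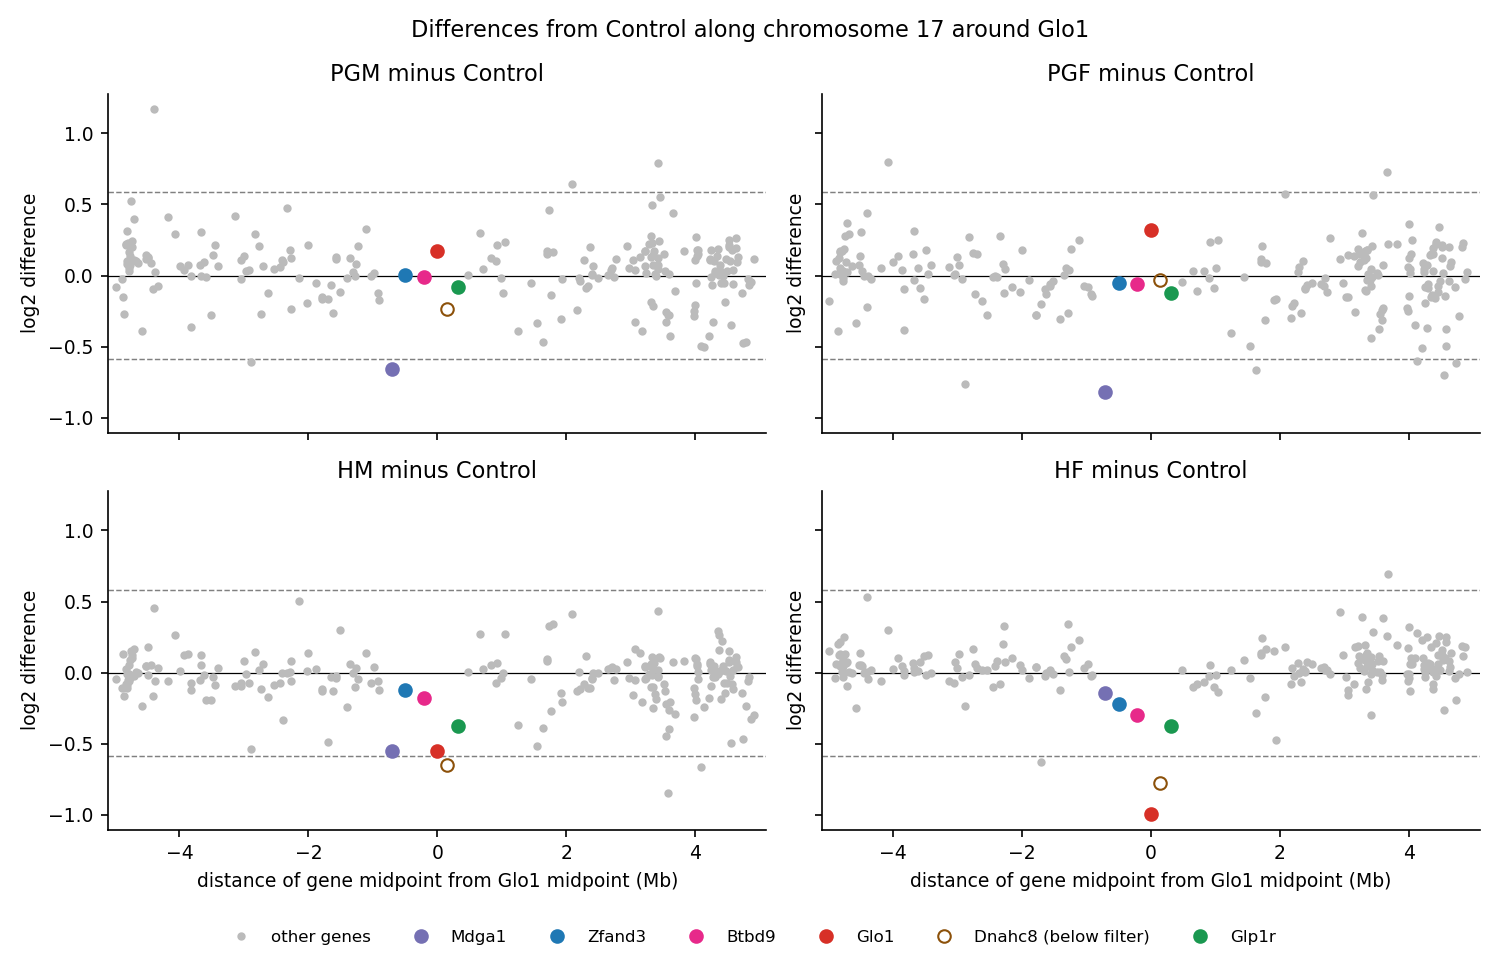
Differences from Control (y axis, log2) of the kept genes within 5 Mb each way of Glo1 on chromosome 17 (x axis, distance between gene midpoints), 1 panel for each of the other groups; dashed lines mark 1.5-fold, coloured points are the 6 genes (Dnahc8, open, did not pass the filter) and grey points are the 223 others. In HF the points dip from Zfand3 at -0.22 to Glo1 at -0.996, with Glp1r at -0.38 on the other side, and the nearest kept genes outside the set lie at -0.02 (1110021J02Rik) and 0.02 (Abcg1).

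Along the chromosome, the nearest kept gene on either side of the set lay near its Control level in HF, while Umodl1, which did not pass the filter, was below its own. Beyond Mdga1, the nearest kept genes were 1110021J02Rik (now Ccdc167) and Ftsjd2 (now Cmtr1), with HF differences of -0.02 each. Then came Rnf8 at 0.06, Tbc1d22b at 0.03 and Pim1 at 0.23. The Pim1 difference was about as large as that of Zfand3 (-0.22), with the other sign. Beyond Glp1r came Umodl1, below the filter at 0.57 RPKM in HF and 0.79 in HM against 0.85 in Control, differences of -0.34 and -0.07. With 1.01 RPKM in PGM and 0.92 in PGF, Umodl1 also had HF as the lowest and HM as the second lowest group, so that order did not stop at the edge of the set. Then came Abcg1, a cholesterol exporter, at 38.7 RPKM in HF and 38.3 in HM against 38.2 in Control. The next kept genes on that side, Rsph1, Slc37a1, Pde9a and Wdr4, had HF differences from -0.10 to -0.02. In HF the differences stepped from -0.14 for Mdga1 to -0.22 for Zfand3, -0.30 for Btbd9 and -0.996 for Glo1, and then to -0.78 for Dnahc8, -0.38 for Glp1r, -0.34 for Umodl1 and 0.02 for Abcg1. In HM, Mdga1 at the edge of the set was as low as Glo1, at -0.55 each, with Zfand3 at -0.12 and Btbd9 at -0.18 between them. On the other side Dnahc8 was at -0.65, Glp1r at -0.37, Umodl1 at -0.07 and Abcg1 at 0.01 in HM. In PGM and PGF, Zfand3, Btbd9 and Glp1r lay between -0.12 and 0.004, on the other side of 0 from Glo1 in all but 1 case (Zfand3 in PGM). Among the 223 other kept genes within 5 Mb each way, 1 was 1.5-fold lower and 1 higher in HF (4930539E08Rik at -0.63 and H2-Aa at 0.70), 2 were lower in HM, and the median differences were 0.04 in HF and -0.02 in HM. The order with HF lowest and HM second was shown by 4 of these 223 genes, or 1.79%.

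The transcripts of Btbd9 did not move as 1. The entries uc008btt.2, uc008btu.2 and uc012aoq.1 had nearly the same level, whereas the entry uc008btw.2 was at 66.7 RPKM in PGM, 68.6 in PGF, 48.5 in HM, 37.1 in HF and 66.6 in Control. Its HF difference was -0.84 and its HM difference -0.45, while those of the other entries ran from -0.32 to -0.29 in HF and from -0.19 to -0.17 in HM. Set against the median of the other 3, uc008btw.2 was 1.85 times as high in PGM, 1.96 in PGF, 1.51 in HM, 1.26 in HF and 1.83 in Control. On the log2 scale this ratio was 0.54 lower in HF and 0.27 lower in HM than in Control, and it differed by 0.01 in PGM and 0.10 in PGF. The groups ran from low to high as HF, HM, Control, PGM, PGF for uc008btw.2, the same order as both Glo1 transcripts and unlike the other Btbd9 entries, which had PGF, PGM and Control above HM in that order. In uc008btw.2, however, Control, PGM and PGF were nearly level, so their order carries little. PGM and PGF differed from Control by 0.002 and 0.04 there, against 0.17 and 0.32 in Glo1. This entry was singled out after its values were seen, and which exons it covers is not given in the files used here.

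**Figure D3:**
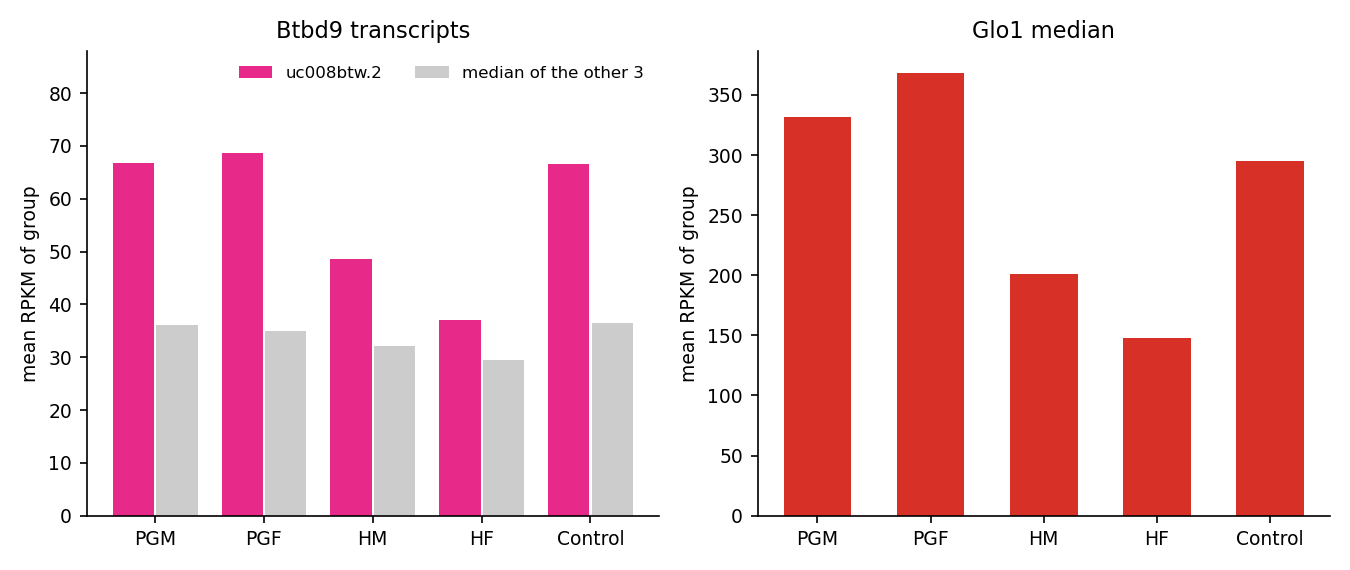
Mean RPKM by group of the Btbd9 entry uc008btw.2 beside the median of the other 3 Btbd9 entries (left) and of Glo1 (right, median of its transcripts); bars start at 0 and carry no error, since group means were used. The gap between the 2 Btbd9 bars was 30.6 RPKM in PGM, 33.7 in PGF, 16.5 in HM, 7.59 in HF and 30.2 in Control.

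**Figure D4:**
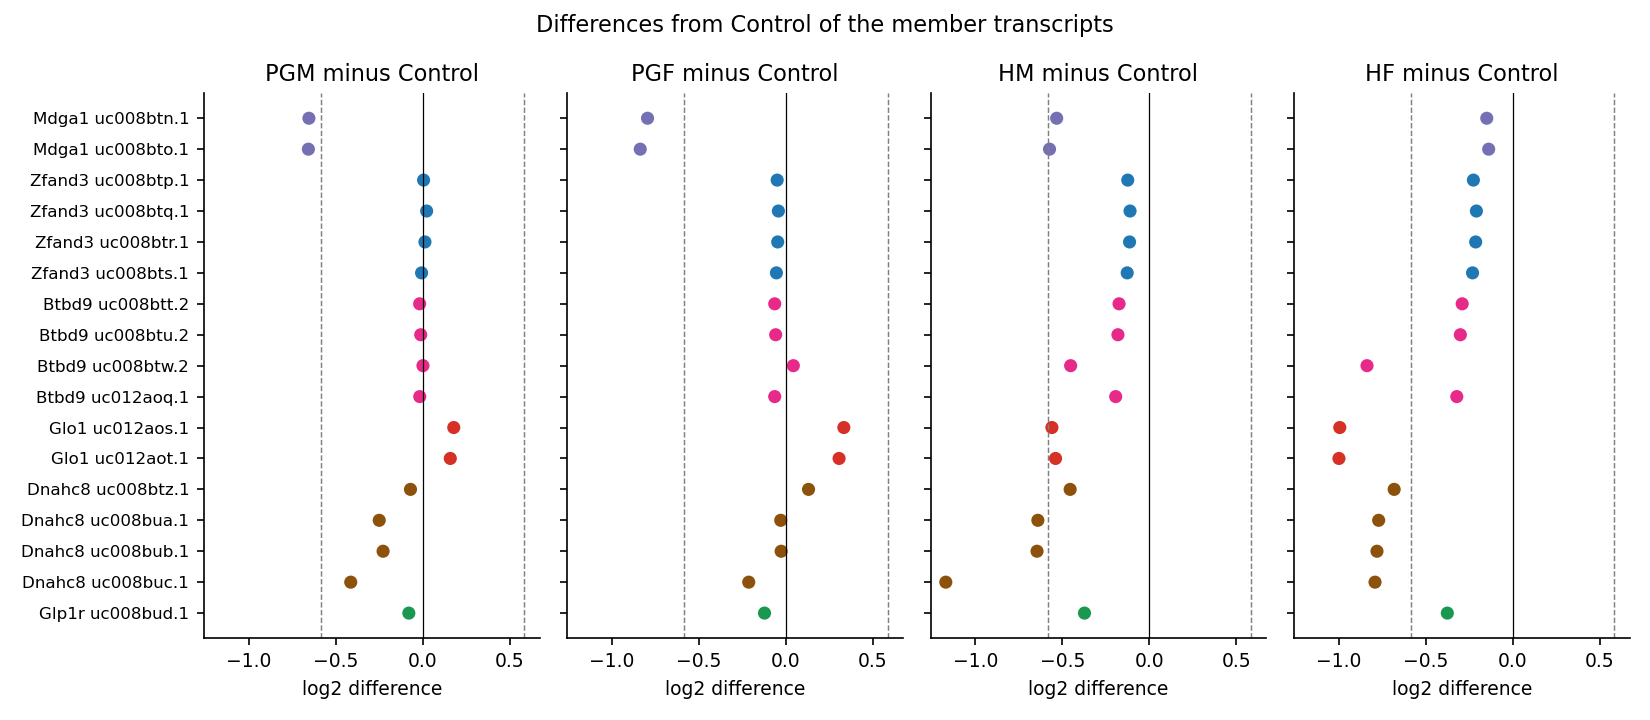
Log2 difference from Control (x axis) of each of the 17 transcripts (rows, coloured by gene) in the 4 other groups, with dashed lines at 1.5-fold. In HF the entries of Glo1 and Dnahc8 and the entry uc008btw.2 of Btbd9 lie beyond the line, and in PGM and PGF only those of Mdga1 do.

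Mdga1, the outermost gene of the set, followed another pattern. It was at 16.4 RPKM in PGM, 14.6 in PGF, 17.6 in HM, 23.6 in HF and 26.1 in Control. All 4 means were under that of Control, and HF, the lowest group for Glo1, was here the nearest to Control at 90.3%. Mdga1 was the 1 gene of the 5 tested to be 1.5-fold lower in PGM, with a difference of -0.65 where 2.28% of all genes were lower (4.62% differed in either direction), and in PGF, with -0.82 where 1.88% were lower (4.04% in either direction). It was also lower in PGF than in HF, by -0.67, where 1.5% of all genes were, and its HM difference from Control was -0.55 with 1.54% of all genes past 1.5-fold in either direction. The 2 transcripts were alike, with differences of -0.65 and -0.66 in PGM and of -0.80 and -0.84 in PGF.

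Most genes of a list around Mdga1 were below Control, some by no more than the all-gene median. In the list of its relative Mdga2, the neuroligin genes Nlgn1, Nlgn2 and Nlgn3 and the neurexin genes Nrxn2 and Nrxn3, 6 of 6 members were below Control in PGM, PGF and HM and 5 of 6 in HF, with medians of -0.24, -0.28, -0.17 and -0.06 against all-gene medians of 0.005, -0.03, -0.03 and 0.02. The share of all genes below Control was not counted. Some members were near the all-gene median: Nrxn3 was at -0.036 in HM, beside -0.032 for all genes. In HF, Nrxn3 was at -0.004 and Nlgn1 at 0.01. Past 1.5-fold was 1 member in 1 group, Nrxn2 in PGF at 122 RPKM against 200 in Control (-0.70). Nlgn2, the neuroligin of inhibitory synapses, was at 113 RPKM in PGM, 99.0 in PGF, 107 in HM, 127 in HF and 138 in Control. Marker levels differed between the same groups. Cortex and striatum markers (6 genes) summed to 138 RPKM in PGM, 108 in PGF, 70.7 in HM, 72.2 in HF and 49.1 in Control, and were above Control in 5 of 6 members in each of the other groups (median differences of 1.34, 0.69, 0.42 and 0.47). Choroid plexus markers (5 genes) summed to 121 RPKM in PGM, 461 in PGF, 36.2 in HM, 31.3 in HF and 19.0 in Control. Within these sums Ttr alone was at 106, 440, 22.75, 18.7 and 7.01 RPKM. Choroid plexus members above Control were 4, 5, 3 and 3 of 5 in PGM, PGF, HM and HF (median differences of 0.47, 0.96, 0.24 and 0.16). Thalamic markers were above Control in 6 of 6 members in PGM, PGF and HM and in 2 of 6 in HF (median differences of 1.27, 1.04, 0.52 and -0.04). Hypothalamic markers were above Control in 1, 2, 4 and 3 of 10 members in PGM, PGF, HM and HF (median differences of -0.82, -0.85, -0.19 and -0.17). Meningeal markers (4 genes) were above Control in 0, 0, 0 and 3 members (median differences of -0.92, -0.57, -0.67 and 0.19). The part of these marker differences in the Mdga1 differences was not tested.

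Marker levels also differed between the groups in which Glo1 was low and Control. In HF the cortex and striatum sum was 72.2 against 49.1 RPKM in Control and the choroid plexus sum 31.3 against 19.0 RPKM. Most of the choroid plexus gap was the single gene Ttr, at 18.7 RPKM in HF against 7.01 in Control. Of the choroid plexus markers 3 of 5 were above Control in HF, with a median difference of 0.16. Between HF and Control the thalamic sum (138 against 139 RPKM) and the ependymal sum (53.8 against 50.8 RPKM, 5 genes of ciliated cells) were close. The hypothalamic sum was 1841 RPKM in HF against 2048 in Control. The pituitary sum was 37.97 against 72.2 RPKM, with 2 of 6 pituitary markers, Prl and Pou1f1, listed at 0 in HF. In HM the thalamic sum was 210 RPKM and the ependymal sum 66.3, with 6 of 6 and 5 of 5 members above Control. Cortex and striatum (70.7 RPKM), choroid plexus (36.2) and pituitary (89.1) sums were also above Control in HM. Single genes weighed heavily in the last 2 sums. Ttr was at 22.75 RPKM in HM against 7.01 in Control, and Gh at 62.1 against 39.8. The pituitary markers Cga (20.8 against 26.2) and Lhb (1.99 against 3.19) were below Control in HM, and 4 of 6 pituitary markers were above it. The hypothalamic sum in HM (1871 RPKM) was below it. Meningeal markers summed to 69.1 RPKM in HM and 106 in HF against 99.7 in Control. Myelin markers (5 genes) summed to 8867 RPKM in PGM, 11196 in PGF, 7536 in HM, 5699 in HF and 5351 in Control. Among the groups other than Control the order from low to high, HF, HM, PGM, PGF, was the same as for Glo1. Control was lowest for myelin and close to HF, while for Glo1 it lay between HM and PGM. How many genes share the order of the groups other than Control was not counted. Red cell markers (3 genes) summed to 1899, 2557, 1531 and 3009 RPKM in PGM, PGF, HM and HF, against 3549 RPKM in Control. The Y-linked gene Ddx3y was at 30.4 RPKM in PGM, 32.0 in PGF, 16.8 in HM, 15.9 in HF and 2.52 in Control, and Xist at 14.2, 11.6, 26.4 and 35.4 RPKM, against 44.0 in Control. The part of cortical, thalamic, choroid plexus, ependymal, meningeal, pituitary, hypothalamic, myelin or red cell RNA and of the sex of the animals in the Glo1 differences was not tested.

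Few genes of the lists around the 6 were past 1.5-fold from Control, as was so for all kept genes, of which 0.829% to 4.62% were, so these counts are not particular to the lists. Of the methylglyoxal and glutathione genes 17 of 20 found in the table passed the filter, and their medians were 0.10 in PGM, 0.04 in PGF and, in HM and HF, 0.02 and 0.07, beside the all-gene medians given for the Mdga1 list. Hagh, glyoxalase II, which takes up the product of glyoxalase I, was at 144 RPKM in PGM, 146 in PGF, 128 in HM, 125 in HF and 119 in Control, so it was slightly above Control in the groups where Glo1 was below it. Tpi1, the glycolytic isomerase whose substrates give rise to methylglyoxal, differed by 0.12 in HF and 0.13 in HM, and Akr1b3, an aldose reductase, by 0.07 and -0.02. Gss, glutathione synthetase, was the member past 1.5-fold. It was higher in PGM (0.91) and PGF (1.02) than in Control, where 2.34% and 2.16% of all genes were, and higher in PGF than in HF (0.82), while its HM difference of 0.582 lay just inside the limit. It was at 35.6 RPKM in PGM, 38.4 in PGF, 28.3 in HM, 21.6 in HF and 18.7 in Control. Its order from low to high, Control, HF, HM, PGM, PGF, matched that of Glo1 except for the place of Control. Gss was thus above Control in HF and HM, where Glo1 was below it. How common this order is among all genes was not counted.

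In the list around Glp1r, 8 of 12 genes passed the filter and 0 reached 1.5-fold in any of the 8 comparisons. Their medians were -0.09 in PGM, -0.12 in PGF and, in HM and HF, -0.11 and -0.03. Gcg, which encodes the precursor of glucagon-like peptide 1, was at 0.05 RPKM or less in every group and listed at 0 in Control. The related receptor genes Glp2r, Gipr and Gcgr were under 0.6 RPKM in every group, so among the receptor genes looked at here only Glp1r had a clear level. Other related receptor genes were not looked at. Of the axonemal dynein heavy chain genes 9 of 12 passed. In HM 9 of 9 of these were above Control (median 0.14), in HF 4 of 9 (median -0.01) and in PGF 2 of 9 (median -0.30). None was past 1.5-fold, the all-gene medians were -0.03, 0.02 and -0.03, and the share of all genes above Control was not counted. Dnahc8 itself did not pass. Of the genes that also did not, Dnahc3 and Dnahc17 were below Control in HM (-0.14 and -0.15) and in HF (-0.19 and -0.24). Dnahc14 was above it (0.10 in HM and 0.17 in HF). The 5 other AN1-type zinc finger genes ran from 0.01 to 0.18 in HF (median 0.04). This is near the all-gene median of 0.02, while Zfand3 was at -0.22. The 7 genes of BTB adaptors and their partners, such as the ubiquitin ligase scaffold Cul3, had medians of -0.03 in HF and -0.04 in HM, with none past 1.5-fold.

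**Figure D5:**
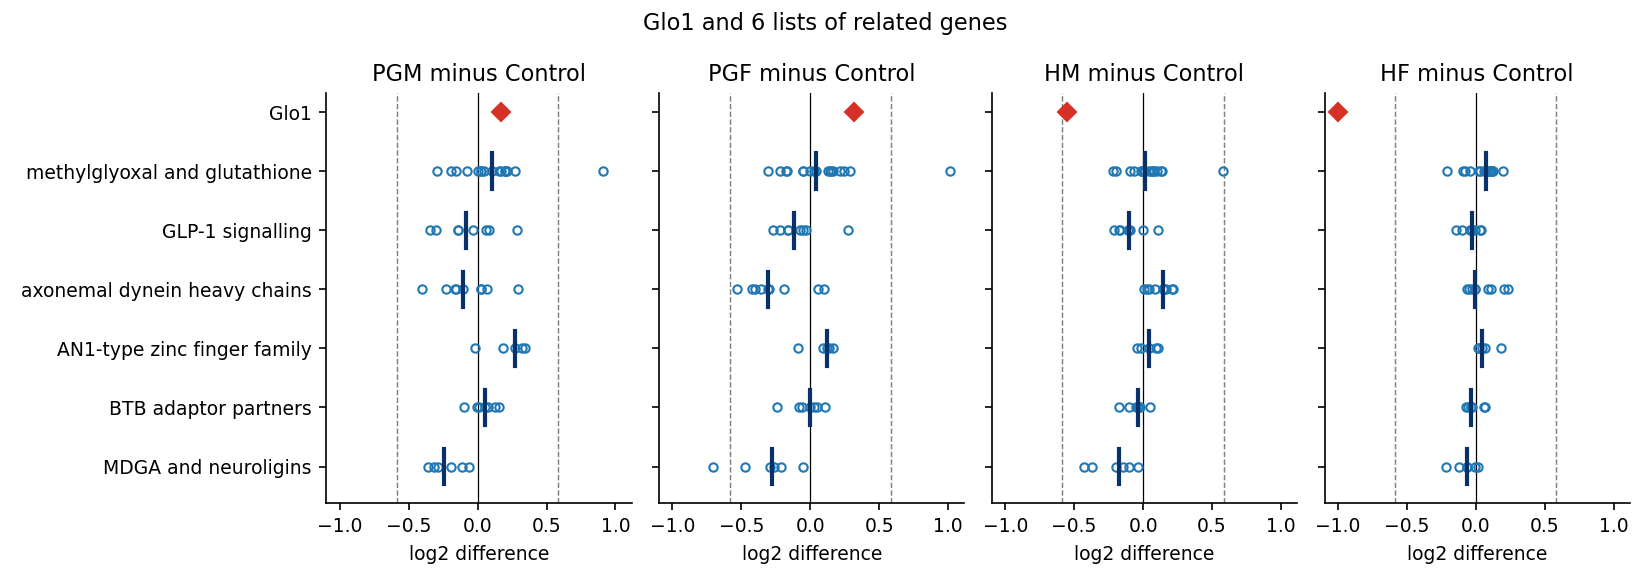
Log2 differences from Control (x axis) of Glo1 (diamond) and of the kept genes of 6 lists (circles, 1 row a list, bars at the median) in the 4 other groups, with dashed lines at 1.5-fold. In HF, Glo1 at -0.996 lies apart from the 17 methylglyoxal and glutathione genes, which run from -0.21 to 0.20.

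The genes of the whole table whose 4 differences from Control were closest to those of Glo1, by root mean square distance over the 4 groups, were Mir667 (distance 0.22), LOC100499420 (0.25), Mirlet7e (0.30), Zfp738 (0.33) and Gm16914 (0.35). All but Zfp738 were below 3 RPKM in every group. Zfp738, a zinc finger gene on chromosome 13, was at 19.9 RPKM in PGM, 16.8 in PGF, 14.6 in HM, 11.6 in HF and 20.4 in Control. By the same measure Glp1r ranked 14, Btbd9 49 and Zfand3 142 among 17480 genes, while Mdga1 ranked 16877 with a distance of 0.82. The ranks of the neighbours describe a pattern that was known when they were picked.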

How the data were processed

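Total RNA of the hypothalamus was sequenced in 15 samples, whose titles name their groups. The deposited table holds RPKM that the authors averaged per group, per the file headers, with 2 decimals. Reads were checked with FastQC and aligned with Novoalign 2.08 to mm10, per the submitters' processing notes. The counting program, its treatment of shared reads and strand, and the depth are not stated. A second header line inside the table (1 line) was left out.

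The genes and gene lists were chosen with earlier results of these data known. The median over the transcripts of a gene name was used, names with a mean of at least 1 RPKM were kept, and differences of log2(RPKM + 0.5) were counted at 1.5-fold in 8 comparisons. With group means alone the planned limma fit could not be made, so there is no p-value. The text names the 6 genes, their nearest neighbours (5 kept genes on each side), list members past 1.5-fold and the 5 genes nearest to Glo1. Other list members were named as examples after their values were seen, and 1 list member is not reported here. Positions come from GENCODE M21 by symbol or a RefSeq synonym, for 82.5% of names. Alternatives changed the pseudocount, filter, scaling, transcript summary and threshold. Counting was tested on simulated data. Python 3.11.15, numpy 2.4.6, pandas 2.3.3 and matplotlib 3.10.9 were used.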

Additional observations from a re-analysis of the deposited data

How the results depend on the processing

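Of 360 differences of the 5 tested genes recomputed under 9 alternatives, 353 kept their direction or stayed within the fold limit on the same side of it as before. The exceptions were as follows. With a 2-fold threshold Glo1 in HF against Control (-0.996), Glo1 in PGM against HM (0.72) and Mdga1 in PGF against Control (-0.82), PGF against HF (-0.67) and PGM against Control (-0.65) were no longer past the limit. With the transcript of the highest mean, Btbd9 is read from uc008btw.2 and passed it in HF against Control (-0.84) and PGF against HF (0.88). Under all 9 alternatives the Glo1 difference stayed between -1.01 and -0.99 in HF against Control and between -0.56 and -0.53 in HM against Control.

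The number of the genes past the limit was 1 in HF against Control and became 2 with no filter, where Dnahc8 enters, 3 with the highest transcript, 2 with the sum of transcripts and 0 at 2-fold. In HM against Control it was 0 and became 1 under the first 3 of these settings. In PGF against HF it was 2 and became 3 with no filter, the highest transcript and the sum of transcripts, and 1 at 2-fold. In PGM against HM it was 1 and became 2 with the highest transcript and the sum, and 0 at 2-fold. In PGM and PGF against Control it was 1 and became 0 at 2-fold.

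The number of all genes past the limit, 145 in HF against Control, was 363 with no filter, 75 with a mean of at least 3 RPKM and 54 at 2-fold. In HM against Control it was 269, and 496, 172 and 38 under the same settings. In HM against HF it was 293, and 520, 182 and 46. In PGM against HM it was 279, and 501, 162 and 41. In PGM against PGF it was 173, and 388, 93 and 50, and 271 with a pseudocount of 0.1. At 2-fold it was 147 in PGF against Control (706 at 1.5-fold), 110 in PGF against HF (573) and 145 in PGM against Control (807). Upper quartile scaling moved the share of higher genes in PGM against HM to 52.8%, from 63.8%.

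No paired analysis was possible because the table holds 1 mean per group, and leaving out replicates was not run. Read depth is unknown, so the counting error of the low Dnahc8 values cannot be given.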
